A study of Arabidopsis thaliana with 12 samples.

Results

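The TRICHOME BIREFRINGENCE-LIKE (TBL) genes of Arabidopsis thaliana were followed in seedlings of the wild type and of 3 mutants with lowered nitric oxide (NO) production. The members were every gene whose symbol is TBL and a number and which a probe set of the ATH1 array lists alone. This gave 22 genes, each measured by 1 probe set, of 13356 genes named on the array. The RefSeq gene table (TAIR10.1 assembly) holds 41 TBL symbols, and the other 19, TBL1 to TBL14, TBL22, TBL24, TBL27, TBL31 and TBL33, had no probe set listed with them alone and were not analysed here.

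TBL proteins form a plant-specific family named after TRICHOME BIREFRINGENCE, a gene whose mutants have trichomes with altered cell walls. Most studied members reside in the Golgi and transfer acetyl groups onto wall polysaccharides such as xylan, mannan, xyloglucan and pectin before these are secreted. O-acetylation is known to shape how these polymers interact with cellulose, how accessible they are to enzymes and how walls respond to pathogens and herbivores.

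The study hybridized total RNA of whole seedlings, aged 15 days, to 12 arrays, with 3 biological replicates for each of 4 genotypes. All plants were grown on MS medium with sucrose, with 16 h of light and 8 h of darkness, and were harvested 5 h after dawn of the last day. The genotypes were Col-0, the wild type; nia1nia2, which lacks both nitrate reductases; noa1-2, a mutant of NO-ASSOCIATED1; and nia1nia2noa1-2, the triple mutant that carries all these mutations. NOA1 is a plastid GTPase, not an enzyme that makes NO, so noa1-2 is an indirect model of low NO. NIA1, NIA2 and NOA1 were not listed alone with a probe set, so the genotype labels were not checked against the mutated genes. Values are log2 intensities after the authors' normalization, and a level is comparable between genotypes for 1 probe set but not between genes. In RNA of whole seedlings, fewer cells of a type and less RNA per cell cannot be told apart.

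A gene was tested where its mean log2 intensity reached 6, the study's floor for signal, in at least 1 genotype. This held for 13 of the 22 TBL genes (TBL16, TBL18, TBL23, TBL25, TBL26, TBL28, TBL35, TBL36, TBL37, TBL38, TBL39, TBL41 and TBL45) and for 7034 genes in all. The other 9 (TBL15, TBL19, TBL20, TBL21, TBL30, TBL32, TBL34, TBL42 and TBL43) lay under the floor in every genotype. Changes were tested with limma on all 12 arrays, and a gene was called where the p adjusted over all genes tested was under 0.05.

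In nia1nia2, 2 of the 13 tested TBL genes rose (TBL37 and TBL38) and 5 fell (TBL23, TBL25, TBL36, TBL41 and TBL45). Over all genes tested, 16.4% rose and 26.6% fell in this mutant. In nia1nia2noa1-2, 2 TBL genes rose (TBL37 and TBL38) and 1 fell (TBL36), against 10.6% and 11.3% of all genes tested. In noa1-2, 0 of the 13 were called in either direction in this limma fit on all arrays. Over all genes tested, 5.00% were called higher and 4.08% lower, and 3 TBL genes had an unadjusted p under 0.05. With limma on the noa1-2 and Col-0 arrays alone, TBL37 was called higher (adjusted p = 0.0234). TBL36 (0.0151) and TBL38 (0.0228) were called lower in that fit. Array weights by genotype gave TBL37 higher and TBL23 and TBL36 lower. The share of all genes called was not counted for these other fits. The share of TBL genes that fell in nia1nia2 is read against a background in which more than 1 gene in 4 fell. At a rise of at least 2-fold, TBL37 and TBL38 were called in nia1nia2, where 4.75% of all genes were. TBL37 was called at that size in the triple mutant, where 2.84% of all genes were.

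The median log2 change of the 13 tested members was -0.17 in nia1nia2noa1-2, -0.25 in nia1nia2 and -0.13 in noa1-2. The medians over all genes tested were -0.03, -0.10 and -0.03. Of the 13 changes, 9 were negative and 4 positive in nia1nia2, and likewise in noa1-2. In the triple mutant 8 were negative and 5 positive. The share of all genes tested with a negative change was not counted. The members did not all change in 1 direction. Changes spread from -0.91 to 3.39 in nia1nia2, from -0.92 to 2.69 in the triple mutant and from -0.61 to 0.44 in noa1-2. Because each mutant was set against the same 3 Col-0 arrays, the values of a gene in the 3 mutants are given side by side and are not independent.

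**Figure D1:**
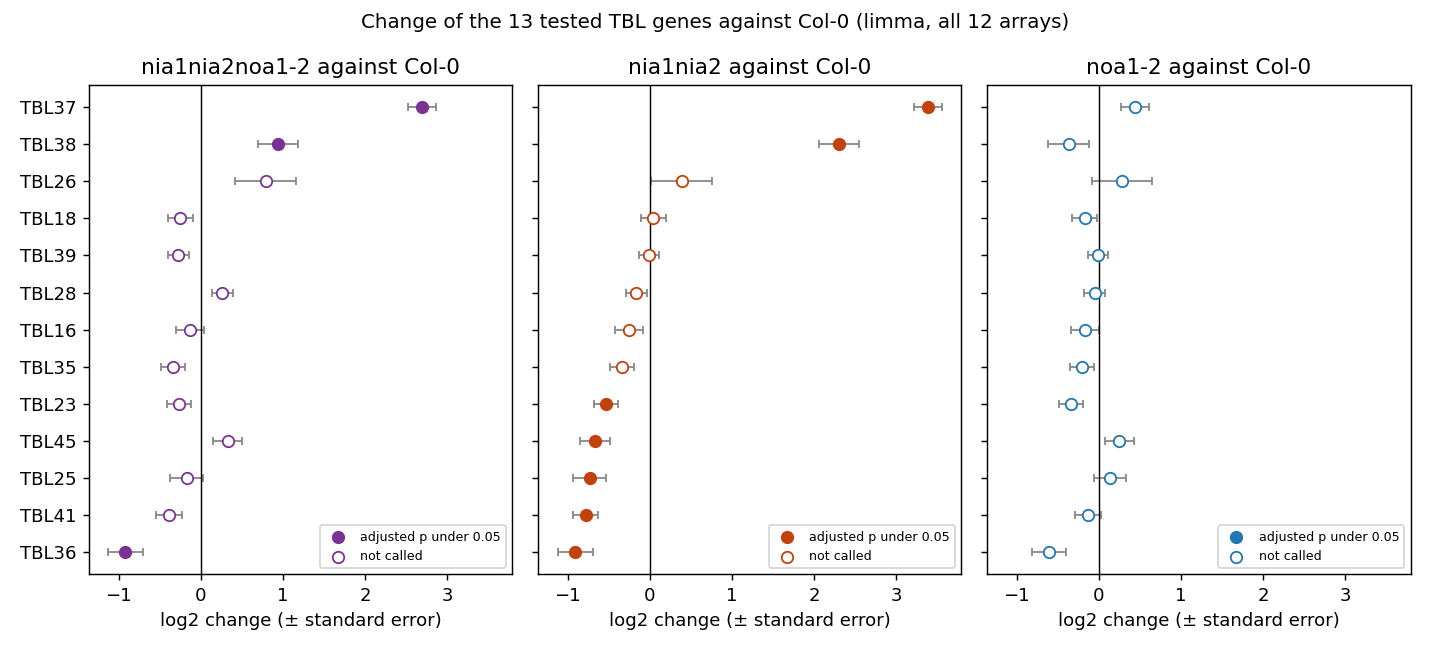
Log2 change (x axis) of the 13 tested TBL genes against Col-0 in nia1nia2noa1-2, nia1nia2 and noa1-2, with bars of 1 standard error and filled points for an adjusted p under 0.05. TBL37 lies far to the right in both genotypes that carry nia1nia2 (2.69 and 3.39), and every point of the noa1-2 panel is open.

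TBL37 (AT2G34070) is known as a wall acetyltransferase gene activated by jasmonate signalling, whose product contributes to resistance to herbivores. Its log2 intensity in Col-0 was 7.69, 7.33 and 7.40 in replicates 1 to 3. In nia1nia2, whose replicates are numbered 2 to 4, it was 10.85, 10.48 and 11.25. All nia1nia2 arrays lay 2.79 or more above the highest Col-0 array. The triple mutant gave 10.10, 10.28 and 10.11, and noa1-2 gave 7.75, 7.97 and 8.01. The arrays of the 4 genotypes did not overlap, in the order Col-0, noa1-2, nia1nia2noa1-2 and nia1nia2 from low to high.

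The rise of TBL37 over Col-0 was 3.39 ± 0.17 (log2 change ± SE) in nia1nia2, or 10.5-fold, with an adjusted p = 7.07e-08. In nia1nia2noa1-2 it was 2.69 ± 0.17, or 6.45-fold, with an adjusted p = 8.97e-07. TBL37 held rank 21 from the top of the 7034 tested genes by log2 change in each of these mutants. Both calls held under all 25 alternatives tried, at changes of 3.19 to 3.58 and 2.62 to 2.80. In noa1-2 the change was 0.44 ± 0.17, with a 95% interval of 0.06 to 0.81 and an adjusted p = 0.139. With the 6 arrays of noa1-2 and Col-0 alone in the fit, the same change had an adjusted p = 0.0234.

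TBL38 (AT1G29050) is described as an acetylesterase of homogalacturonan, a pectin, in the seed coat cells that make mucilage, and so is a member of the family that removes acetyl groups. Its levels were 7.15, 7.23 and 7.43 in Col-0 and 9.74, 8.92 and 10.06 in nia1nia2. In the triple mutant they were 8.34, 8.51 and 7.79, and in noa1-2 they were 6.87, 6.87 and 6.96. As for TBL37, no 2 genotypes overlapped, with nia1nia2 highest and the triple mutant next, but here noa1-2 lay below Col-0.

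TBL38 rose by 2.30 ± 0.24 in nia1nia2, or 4.94-fold (adjusted p = 1.7e-05), a call that held under all 25 alternatives. The rise in nia1nia2noa1-2 was 0.94 ± 0.24, or 1.92-fold (adjusted p = 0.0149). That call was lost without Col-0 replicate 1 (adjusted p = 0.0581), without nia1nia2noa1-2 replicate 1 (0.0583) or without nia1nia2noa1-2 replicate 2 (0.0768). The change in noa1-2 was -0.37 ± 0.24, with an adjusted p = 0.389 and an interval of -0.90 to 0.16. With the 6 arrays of noa1-2 and Col-0 alone it had an adjusted p = 0.0228.

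**Figure D2:**
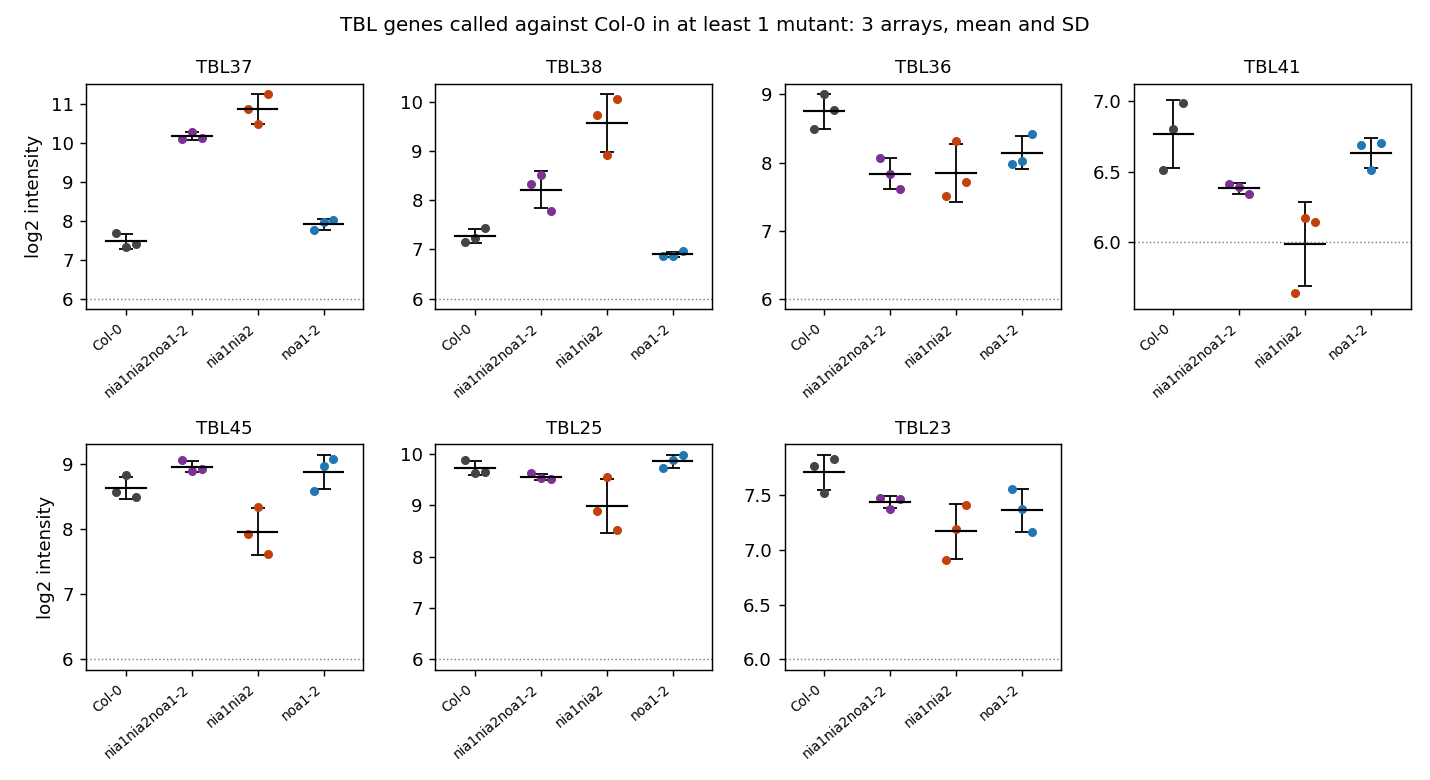
Log2 intensity (y axis, a scale of its own for each gene) of the 7 TBL genes called against Col-0 in at least 1 mutant, with 3 arrays per genotype as points from the lowest replicate number on the left, the mean as a line and the SD as a bar; the dotted line is the floor of 6. TBL37 and TBL38 are highest in nia1nia2, and the nia1nia2 mean is the lowest of the 4 for TBL41, TBL45, TBL25 and TBL23.

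The mannan acetyltransferases include TBL23, TBL25 and TBL26, and all 3 were tested. TBL25 (AT1G01430) had levels of 9.88, 9.63 and 9.65 in Col-0, of 9.62, 9.52 and 9.51 in the triple mutant and of 9.72, 9.88 and 9.97 in noa1-2. In nia1nia2 the levels were 8.89, 9.55 and 8.52. Replicate 3 of nia1nia2 lay 0.08 under the lowest Col-0 array, and the other nia1nia2 arrays lay further below. The fall of TBL25 in nia1nia2 was -0.73 ± 0.20 (adjusted p = 0.00952), and its changes in nia1nia2noa1-2 and noa1-2 were -0.17 ± 0.20 and 0.14 ± 0.20. The SD of TBL25 over replicates was 0.52 in nia1nia2 and 0.06 to 0.14 in the other genotypes, which share 1 error in this fit. With the arrays of nia1nia2 and Col-0 alone the SE was 0.24 and the change in nia1nia2 was not called (limma, adjusted p = 0.052). The t-test of the methods did not call it either, even unadjusted.

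TBL23 (AT4G11090) stood at 7.76, 7.52 and 7.83 in Col-0 and at 6.91, 7.19 and 7.41 in nia1nia2. It stood at 7.47, 7.37 and 7.46 in the triple mutant and at 7.55, 7.37 and 7.16 in noa1-2. The nia1nia2 and triple mutant arrays all lay below Col-0, while 1 noa1-2 array overlapped with it. TBL23 fell by 0.53 ± 0.15 in nia1nia2 (adjusted p = 0.00993), a call lost with array weights by genotype (adjusted p = 0.052). Its other changes were -0.27 ± 0.15 in the triple mutant and -0.34 ± 0.15 in noa1-2.

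The arrays of TBL26 (AT4G01080) spanned 6.42 to 7.16 in Col-0, 6.62 to 7.80 in nia1nia2, 6.74 to 8.31 in nia1nia2noa1-2 and 6.80 to 7.52 in noa1-2, and each mutant overlapped with Col-0. Its change in the triple mutant was 0.79 ± 0.37, with an interval of -0.01 to 1.59, an adjusted p = 0.144 and the widest SE of the 13. Single triple mutant arrays moved it: it was 1.21 without replicate 2 (adjusted p = 0.0353) and 0.42 without replicate 3 (adjusted p = 0.459). In each genotype replicate 3 had the highest level of TBL26. With replicate number added to the limma fit as a block, TBL26 was called higher in the triple mutant (adjusted p = 0.0152). So of the 3 mannan acetyltransferase genes, 2 fell in nia1nia2, and 0 were called in nia1nia2noa1-2 with all 12 arrays and no block. Over all genes tested, 26.6% fell in nia1nia2, and 10.6% rose and 11.3% fell in the triple mutant. With 3 genes, these counts do not set the group apart from all genes.

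Members known to acetylate xylan, the main hemicellulose of secondary walls, are TBL28, TBL30, TBL32, TBL34 and TBL35. TBL28 and TBL35 were tested and neither was called against Col-0 in any mutant. TBL35 (AT5G01620) had 6.84, 6.93 and 7.11 in Col-0 and 6.68, 6.48 and 6.71 in the triple mutant. These groups did not overlap. The change was -0.34 ± 0.15 (adjusted p = 0.117), and with the 6 arrays compared alone in the fit it had an adjusted p = 0.0341. In nia1nia2 TBL35 changed by -0.34 ± 0.15 (adjusted p = 0.0733), again with no overlap between the arrays. TBL28 (AT2G40150) was near the floor, with 5.98 to 6.19 in Col-0 and 6.17 to 6.55 in nia1nia2noa1-2, and its changes against Col-0 lay between -0.17 and 0.26.

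TBL36, TBL41 and TBL45 are members for which no role is given here. TBL36 (AT3G54260) had levels of 8.49, 9.00 and 8.77 in Col-0, and of 8.07, 7.83 and 7.61 in the triple mutant. Its levels were 7.51, 8.32 and 7.71 in nia1nia2 and 7.98, 8.03 and 8.42 in noa1-2. Every mutant array lay below every Col-0 array, and the mutants overlapped with each other. TBL36 fell by 0.92 ± 0.21 in nia1nia2noa1-2 (adjusted p = 0.00782) and by 0.91 ± 0.21 in nia1nia2 (adjusted p = 0.00377). It was the member with the largest negative change in each mutant. In noa1-2 the change was -0.61 ± 0.21 with an adjusted p = 0.0914, and the fit on the 6 arrays compared gave an adjusted p = 0.0151.

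TBL41 (AT3G14850) had 6.51, 6.80 and 6.99 in Col-0, 5.64, 6.17 and 6.14 in nia1nia2, 6.41, 6.39 and 6.34 in the triple mutant and 6.69, 6.51 and 6.70 in noa1-2. The nia1nia2 arrays lay under those of every other genotype, and their mean of 5.98 was just under the floor. The fall in nia1nia2 was -0.78 ± 0.16 (adjusted p = 0.00144). The triple mutant lay between nia1nia2 and Col-0 without overlap, at a change of -0.39 ± 0.16 (adjusted p = 0.093), which 4 of 24 alternatives called.

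TBL45 (AT2G30010) had changes of opposite sign in nia1nia2 and the triple mutant. Its levels were 8.57, 8.82 and 8.49 in Col-0, 7.93, 8.33 and 7.62 in nia1nia2, 9.05, 8.89 and 8.92 in nia1nia2noa1-2 and 8.58, 8.97 and 9.08 in noa1-2. All nia1nia2 arrays lay below Col-0 and all triple mutant arrays lay above it. The fall in nia1nia2 was -0.67 ± 0.18 (adjusted p = 0.00863), and the change in the triple mutant was 0.33 ± 0.18 (adjusted p = 0.21). With the 6 arrays of the triple mutant and Col-0 alone, that change was called (adjusted p = 0.0401).

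TBL16, TBL18 and TBL39, also with no role given here, were not called in any comparison. Over the 12 arrays TBL16 spanned 5.86 to 6.62, TBL18 spanned 7.27 to 8.00 and TBL39 spanned 6.99 to 7.51. Their changes against Col-0 lay between -0.27 and 0.04. In each of the mutants their arrays overlapped with those of Col-0.

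For noa1-2 as a whole, the 95% intervals of the 13 changes lay between -1.06 and 1.08. The interval stayed within 1 log2 unit of 0 for 11 genes and within 0.5 for 4, and for the remaining genes a change of that size could not be dismissed with this number of arrays. The fit shares 1 error over all genotypes, and nia1nia2 had the widest spread: its median SD over replicates was 0.26 for all genes tested and 0.36 for the tested TBL genes. In the other genotypes these medians were 0.11 to 0.12 and 0.12 to 0.16.

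The nia1nia2 arrays differed among themselves in how far the TBL genes lay from Col-0. Of the 7 TBL genes called in nia1nia2, replicate 3 was the array nearest the Col-0 mean for 6 (85.7%), TBL23 being the exception, for which it was replicate 4. Over all 3022 genes called in nia1nia2, replicate 3 was nearest for 54.5%. For TBL38, for example, it stood at 8.92, beside 9.74 and 10.06. Without replicate 3 the same 5 members were lower in nia1nia2, and TBL35 was called too. Without replicate 4 the same 5 were lower, and TBL16 was called too.

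The triple mutant was then set against each of its parent genotypes. Against nia1nia2, TBL45 and TBL28 were higher and TBL38 and TBL37 lower in nia1nia2noa1-2. That is 2 of 13 in each direction, against 9.97% of all genes tested that were higher and 5.19% that were lower. TBL38 differed by -1.36 ± 0.24 and TBL45 by 0.99 ± 0.18, each with an adjusted p = 0.00454. TBL37 differed by -0.70 ± 0.17 (adjusted p = 0.0182), a call lost without nia1nia2noa1-2 replicate 1 (0.0698) or replicate 3 (0.0615). TBL28 differed by 0.43 ± 0.13 (adjusted p = 0.04), and its adjusted p stayed under 0.05 in 4 of the 12 fits that left out 1 array. With the 6 arrays of nia1nia2noa1-2 and nia1nia2 alone, TBL45 was the 1 member called, at the threshold (limma, adjusted p of 0.05 after rounding).

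Against noa1-2, TBL37 and TBL38 were higher in nia1nia2noa1-2 and 0 members were lower, against 9.40% and 9.17% of all genes tested. TBL37 differed by 2.25 ± 0.17 (adjusted p = 4.85e-06) and TBL38 by 1.31 ± 0.24 (adjusted p = 0.00245). With the 6 arrays of these genotypes alone both were called, and TBL25 was called lower in the triple mutant by -0.31 ± 0.10 (adjusted p = 0.0341), with arrays that did not overlap. TBL28 was called higher, at 0.32, with array weights by genotype (adjusted p = 0.0322).

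On the log2 scale the change in the triple mutant was also compared with the nia1nia2 and noa1-2 changes added together. For TBL37 the sum was 3.82 and the triple mutant reached 2.69, a departure of -1.13 ± 0.24 (adjusted p = 0.0243). This was 1 of 13 members, and 3.47% of all genes tested departed in either direction. The departure kept its sign and lay between -1.32 and -0.94 when any 1 array was left out, but its adjusted p was above 0.05 in 6 of these 12 fits and reached 0.0775. TBL38 departed in the same direction by -0.99 ± 0.35 (adjusted p = 0.114). TBL45 departed by 0.74 ± 0.25 and TBL23 by 0.61 ± 0.21, each with an adjusted p = 0.107. Of the 13 members, 9 departed upwards and 4 downwards. The median departure over all genes tested was also above 0, at 0.08, and the share of them that departed upwards was not counted.

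**Figure D3:**
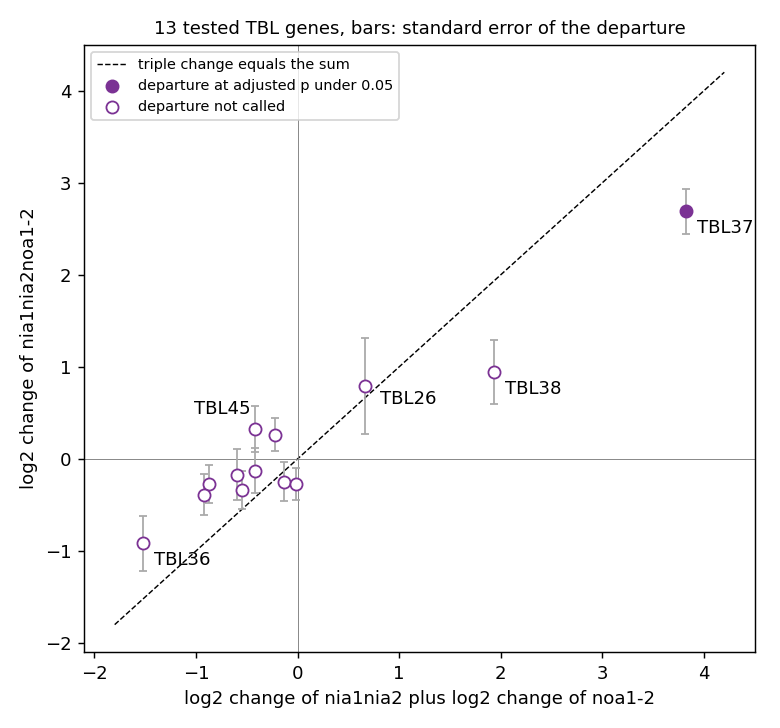
Log2 change of nia1nia2noa1-2 against Col-0 (y axis) and the sum of the log2 changes of nia1nia2 and noa1-2 (x axis) for the 13 tested TBL genes, with bars of 1 standard error of the departure from the dashed line of equality. TBL37, the filled point, lies 1.13 below the line, and the open points have an adjusted p above 0.05.

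The 9 members under the floor include TBL19, TBL20 and TBL21, known as xyloglucan backbone acetyltransferases, and TBL30, TBL32 and TBL34 of the xylan group. TBL19 and TBL21 are neighbouring genes on chromosome 5 and both lay under the floor, at 3.81 to 4.61, as did TBL20 at 3.64 to 4.30. TBL28 and TBL30 are neighbours on chromosome 2. TBL30 lay at 5.09 to 5.56 and had its highest genotype mean, 5.46, in Col-0, whereas TBL28 had its highest in the triple mutant. TBL34 and TBL42 had arrays of 4.61 to 5.12 and 4.22 to 4.72, and their genotypes overlapped.

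With no floor, when all 13356 genes were tested, 2 of these 9 were called in nia1nia2, where 26.6% of genes were called in either direction. TBL43 had 4.85, 4.55 and 4.67 in Col-0 and 5.31, 5.78 and 5.12 in nia1nia2, a difference of 0.71 ± 0.16 (adjusted p = 0.00514). TBL15 had 4.52, 4.50 and 4.52 in Col-0, 4.12, 4.27 and 3.95 in nia1nia2 and 4.08, 4.07 and 3.92 in noa1-2. All mutant arrays of TBL15 lay below Col-0. Its differences were -0.40 ± 0.10 in nia1nia2 (adjusted p = 0.0101) and -0.49 ± 0.10 in noa1-2 (adjusted p = 0.0146), where 5.01% of genes were called. TBL32 was lower in the triple mutant than in nia1nia2 by -0.69 ± 0.16 (adjusted p = 0.0196), against 9.32% of genes called in that comparison. Its probe set is of a kind that can share probes with other transcripts. At these intensities the size of a change is not exact.

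**Figure D4:**
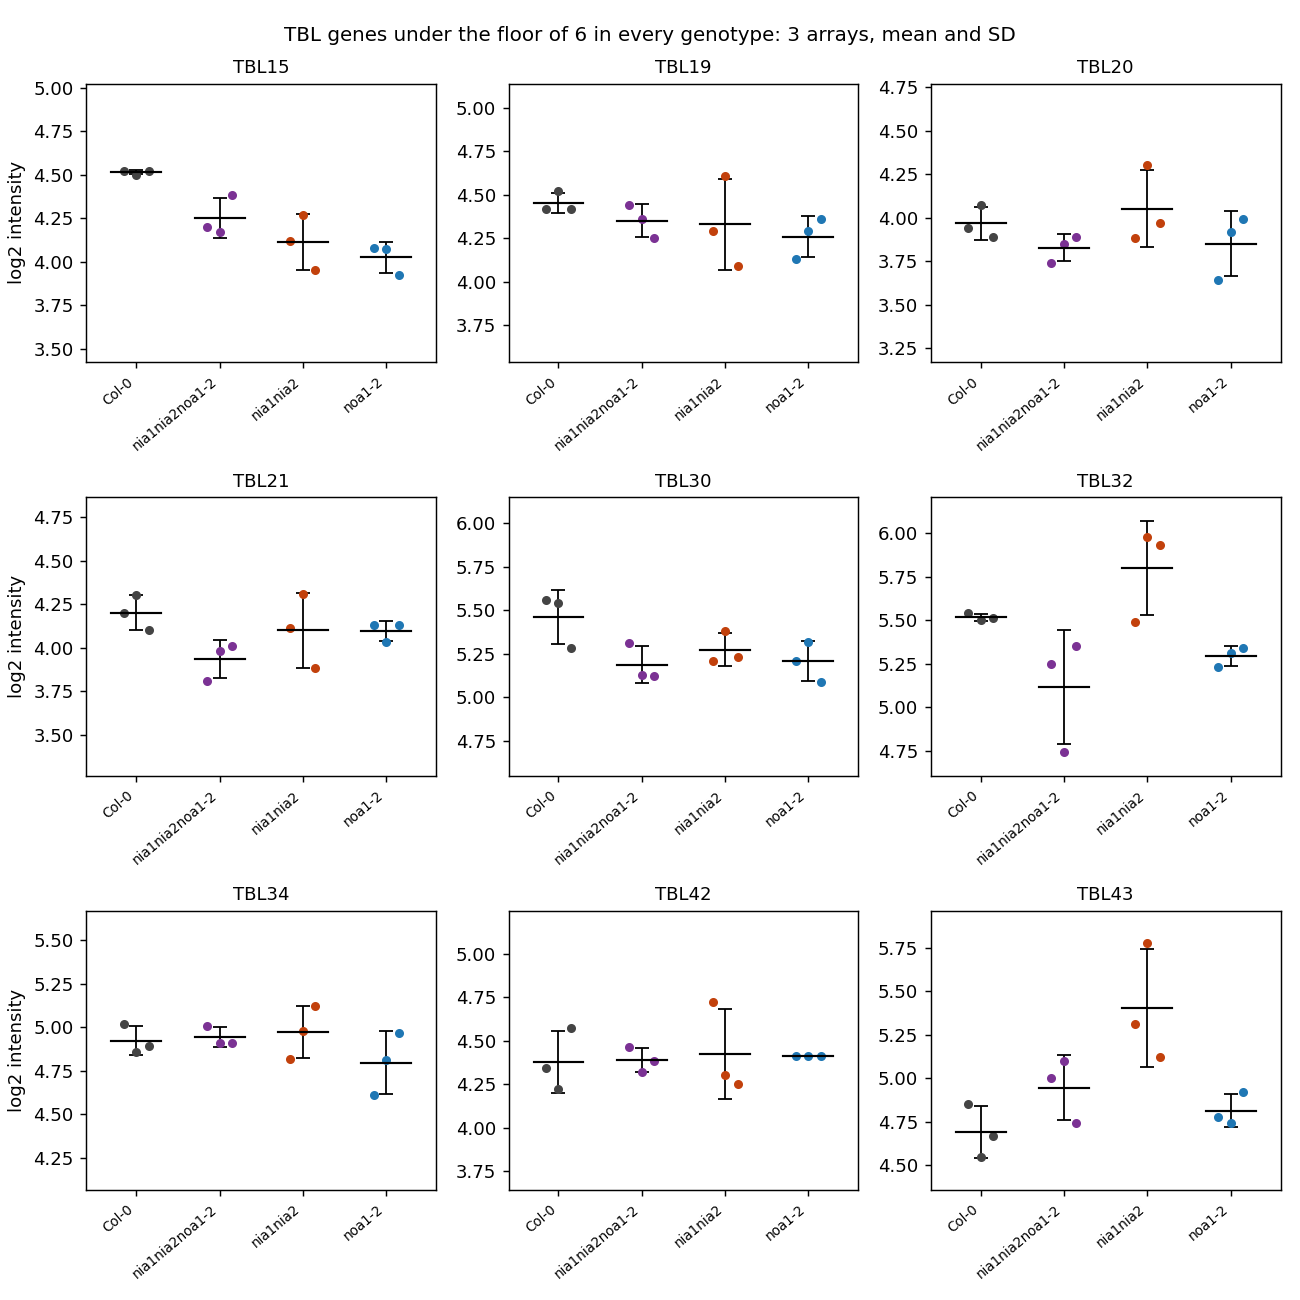
Log2 intensity (y axis, spanning at least 1.6 units in each panel) of the 9 TBL genes under the floor of 6 in every genotype, with 3 arrays per genotype as points, the mean as a line and the SD as a bar. TBL43 is higher in nia1nia2 than in Col-0, and TBL15 is lower in each mutant than in Col-0.

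The other genes of wall acetylation and of wall polymer synthesis were looked up in lists of 152 symbols in all. The list of the acetylation machinery (11 symbols: RWA1, RWA2, RWA3 and RWA4, whose products supply acetyl groups in the Golgi, AXY9, TBR, ESK1, AXY4, AXY4L, PMR5 and PMR6), the pectin acetylesterases (12), the pectin synthesis genes (24), and the genes of secondary wall cellulose (9) and its regulators (28) had 0 members listed alone. From the remaining lists 10 genes were listed and 6 tested. In nia1nia2noa1-2, 0 of the 6 were called, where 10.6% of all genes tested rose and 11.3% fell. With 6 genes, a count of 0 does not set them apart from those shares. The lowest adjusted p was that of CSLC04, which changed by -0.35 ± 0.13 (adjusted p = 0.0623).

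In nia1nia2, 2 of these 6 fell and 1 rose, where 26.6% of all genes tested fell and 16.4% rose. CSLA03, of the mannan synthase family, had 7.77, 7.52 and 7.34 in Col-0 and 6.53, 7.13 and 6.48 in nia1nia2, and fell by 0.83 ± 0.17 (adjusted p = 0.00168). Its arrays did not overlap, and replicate 3 was again the nia1nia2 array nearest Col-0. CSLC04, a xyloglucan glucan synthase gene, fell by 0.57 ± 0.13 in nia1nia2 (adjusted p = 0.00296) and by 0.47 ± 0.13 in noa1-2 (adjusted p = 0.0351). CSLC5, of the same family, changed by 0.46 ± 0.17 in nia1nia2 (adjusted p = 0.039) with arrays that overlapped Col-0. GUT2 (IRX10, a xylan synthase subunit), CSLC6 and COB (a regulator of cellulose orientation) were not called in any mutant, with changes between -0.31 and 0.16.

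**Figure D5:**
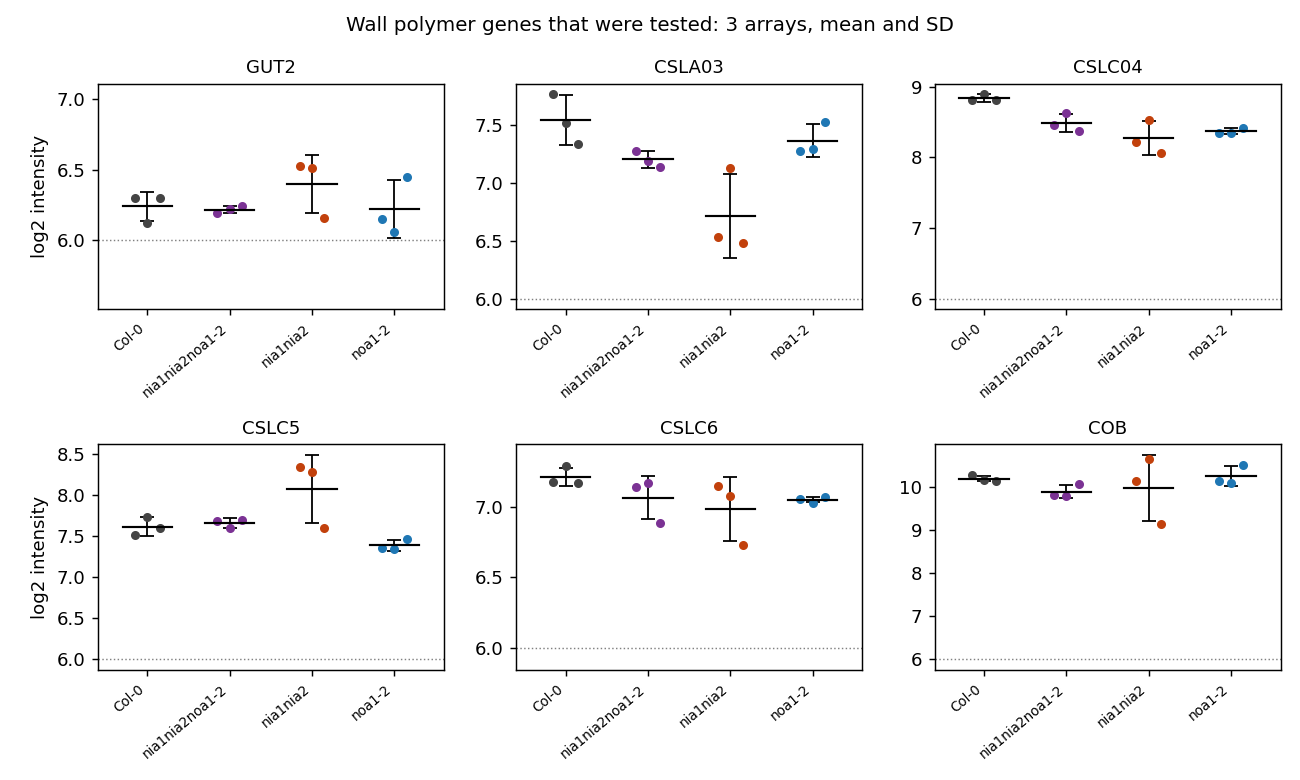
Log2 intensity (y axis, a scale of its own for each gene) of the 6 tested genes of wall polymer synthesis, with 3 arrays per genotype as points, the mean as a line, the SD as a bar and the floor of 6 as a dotted line. CSLA03 and CSLC04 are lowest in nia1nia2, and the nia1nia2 arrays of COB spread over the whole range of the other genotypes and beyond.

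Of 63 symbols of cell type markers, 5 were listed alone and 3 were above the floor, and the endodermis list had 0. LHCB4.1, a light-harvesting protein gene of green tissue, had a mean of 13.59 in Col-0 and of 13.14 to 13.41 in the mutants, which fits whole seedlings with leaves, and fell by 0.45 in nia1nia2 (adjusted p = 0.0198). FMA (FAMA), a regulator of guard cell fate, had a mean of 6.68 in Col-0 and 6.08 in nia1nia2, a fall of 0.60 (adjusted p = 0.000949). GUT2, the 1 xylem marker listed, had means of 6.22 to 6.40. TRY of trichomes and EXPA7 of root hairs lay under the floor, at means of 4.76 to 5.17 and 4.90 to 5.69. Of the 11 green leaf symbols and the 7 guard cell symbols, only 1 each was listed alone and tested. Both of these genes fell in the same mutant as the 5 TBL genes. In that mutant 26.6% of all genes tested fell. Single genes do not show how a cell type changed, and a part of cell types in the TBL changes was not tested.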

How the data were processed

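The authors measured RNA on Affymetrix ATH1 arrays and, per their methods, treated the raw files with RMA (background correction and normalization) in affy, using a custom definition of the probe sets. The deposited intensities are on a linear scale and carry Affymetrix's own probe-set names, and which definition they were made with is not given in the sources consulted. Their log2 was taken (2 decimals). Median intensity was 75.6 to 86.2 per array, and 0 array columns were left unused. The number of arrays limits the precision.

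Genes were named from the platform's probe annotation, which lists 13513 of 22810 probe sets with 1 gene, 503 with several and 8730 with none; 13436 matched RefSeq (TAIR10.1), used for symbols, locus names and neighbours. The probe set with the highest mean stood for each of 146 genes with several. AT2G31110, a TBL40 by synonym, falls outside the rule by symbol.

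limma 3.58.1 under R 4.3.3 (lmFit, contrasts.fit and eBayes) was run on all 12 arrays together, with Benjamini-Hochberg adjustment over the 7034 genes tested. The code was tested on simulated data. Figures were drawn with matplotlib 3.10.9, and tables were made with pandas 2.3.3 and numpy 2.4.6 in Python 3.11.15. Every member is named, and array values are given for those called against Col-0 and for others the text turns on. The members, the gene lists and this rule were chosen with earlier results of these data known. Alternatives were the floor, the normalization, the t-test of the methods, the arrays in the fit, array weights, the replicate block, other probe-set choices and each array left out.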

Additional observations from a re-analysis of the deposited data

Results flagged for a closer look

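TBL37 was the member whose change in nia1nia2noa1-2 differed from the nia1nia2 and noa1-2 changes added together, by a test of that difference itself. The departure was -1.13 on the log2 scale, with an adjusted p = 0.0243 (limma), and 3.47% of all genes tested departed in either direction. The call was not kept in every limma fit that left out 1 array. Without nia1nia2noa1-2 replicate 1 the adjusted p was 0.0775. The 3 triple mutant arrays (10.10, 10.28 and 10.11) all lay below the 3 nia1nia2 arrays (10.85, 10.48 and 11.25) and above all noa1-2 and Col-0 arrays.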

How the results depend on the processing

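Of 522 values for the 7 described members, 491 kept their side of the threshold, 13 lost the call and 18 gained one. 0 changed sign, but many alternatives, such as array weights, cannot alter the log2 change. The 2 members higher in nia1nia2 (TBL37 and TBL38) were called in every alternative. For the other counts the cause of a difference was not tested, except that leaving out arrays leaves fewer samples. Apart from the fit with no floor, the share of all genes called was not counted in the alternatives. Changed member counts cannot be set against that share.

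With the t-test of the methods after Benjamini-Hochberg adjustment, the members called fell from 2 to 1 higher (TBL37) and from 1 to 0 lower in nia1nia2noa1-2, from 5 to 0 lower in nia1nia2, and from 4 to 0 between nia1nia2noa1-2 and nia1nia2. Unadjusted, it gave 2 lower in nia1nia2noa1-2, 1 higher and 2 lower in noa1-2, and 5 that differed between nia1nia2noa1-2 and noa1-2. The unadjusted t-test did not call TBL25 in nia1nia2. In limma on the arrays of the genotypes compared, 3 were higher (TBL45 added) and 3 lower (TBL35, TBL36 and TBL41) in nia1nia2noa1-2, 4 were lower in nia1nia2 (TBL25 lost), 3 differed between nia1nia2noa1-2 and noa1-2 (TBL25 added), 1 was higher in noa1-2 (TBL37) and 2 were lower (TBL36 and TBL38), and 1 differed between nia1nia2noa1-2 and nia1nia2 (TBL45). With array weights by genotype, 3 were lower in nia1nia2noa1-2, 4 in nia1nia2 (TBL23 lost) and 2 in noa1-2 (TBL23 and TBL36), 1 was higher in noa1-2, 2 differed between nia1nia2noa1-2 and nia1nia2 (TBL38 and TBL45) and 3 between nia1nia2noa1-2 and noa1-2 (TBL28 added). With no floor, 1 was lower in noa1-2 and 2 departed from the sum, TBL15 being the added member in each.

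Deviations of same-numbered arrays from their genotype means correlated at -0.11 to 0.28 (15 pairs, 4 over 0.1). Other pairs of arrays correlated at -0.35 to 0.36. With 3 arrays per genotype these values cannot settle whether the numbers pair the samples. Number 4 occurs in nia1nia2 alone, so a block by number fits that array exactly and takes it out of the comparisons. With the replicate block, 3 members were higher in nia1nia2noa1-2 (TBL26 added, adjusted p = 0.0152), 3 were lower in it, 1 was higher in noa1-2, and 2 departed from the sum (TBL23 and TBL37). With the block, 3 differed between nia1nia2noa1-2 and noa1-2 (TBL28 added, adjusted p = 0.0362), and between nia1nia2noa1-2 and nia1nia2 TBL41 took the place of TBL28.

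Leaving out 1 array gave 1 to 2 higher and 1 to 2 lower in nia1nia2noa1-2, 0 to 1 higher (1 without nia1nia2 replicate 4) and 0 to 1 lower (1 without nia1nia2 replicate 3) in noa1-2, 2 to 6 between nia1nia2noa1-2 and nia1nia2, and 0 to 4 departures from the sum. The departures numbered 0 without Col-0 replicate 2 or 3, nia1nia2noa1-2 replicate 1 or 3, or noa1-2 replicate 2 or 3, and 4 without nia1nia2 replicate 3. Centring each array on its median moved the median change of all genes in nia1nia2 from -0.10 to 0.00. The t-test, the fit on 2 genotypes and a floor applied to the genotypes compared give no value for the departure.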

Other observations

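AT2G31110, listed in RefSeq under its locus name with the synonym TBL40, is measured by 2 probe sets. Their mean log2 intensities were 6.66 and 6.15 in Col-0, 6.41 and 5.80 in nia1nia2noa1-2, 6.23 and 5.68 in nia1nia2 and 6.39 and 5.83 in noa1-2, and both probe sets had their lowest mean in nia1nia2.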
